A study of Mus musculus with 2 samples.

Results

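The 10 genes of heme, iron and redox defence described here were examined for binding of the transcription factor USF1 in CH12.LX cells. They were taken by name: Hmox1, Ftl1, Fth1, Prdx1, Nqo1, Gclc, Gclm, Txnrd1, Slc7a11 and Keap1, out of 21315 protein-coding genes that could be placed in the mm10 genome build. CH12.LX is an immortalized B-cell lymphoma line from a female mouse of strain B10.H-2aH-4bp/Wts. Chromatin was immunoprecipitated with an antibody labelled USF1 and sequenced in 1 group of 2 biological replicates, with no treatment, genotype or second condition; control libraries were not analysed here. The files are lists of bound regions, so the cell type could not be checked against its marker genes, and the sequencing depth is unknown.

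A USF1 site was assigned to a gene when its summit, the highest point of a region, lay within 5 kb of an annotated 5′ end (start) of the gene or inside the gene. In mm10 the authors deposited an optimal list of 8108 regions, a conservative list of 7356, and relaxed lists that also hold background: 25978 regions in replicate 1, 44551 in replicate 2 and 300000 from both replicates together. A separate mm9 list held 10624 peaks. Signal is the authors' own value for each region, on a scale that is not stated. In the optimal list it ran from 5.62 to 640.4, with a median of 72.2. In the mm9 list it ran from 29.0 to 7241, with a median of 62.9, so it was compared only within a list.

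USF1, of the basic helix-loop-helix zipper class, binds as a dimer to the palindromic E-box CACGTG, most often together with its relative USF2. Genes of heme breakdown, iron storage and glutathione and thioredoxin chemistry are best known as targets of NRF2, a bZIP factor that pairs with small MAF proteins on antioxidant response elements, and of BACH1, a repressor that leaves the same elements when heme binds it. KEAP1 keeps NRF2 low by handing it to a CUL3 ubiquitin ligase until oxidants or electrophiles modify KEAP1.

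USF1 was found at 6 of the 10 genes: Hmox1, Ftl1, Fth1, Prdx1, Gclc and Txnrd1. None of Nqo1, Gclm, Slc7a11 and Keap1 had an optimal summit by the same rule. Over all protein-coding genes the rule took 22.7%, and without gene bodies it took 16.7%, where the count among the 10 genes was again 6. Within 1 kb of a start the count was 4 of 10 (Hmox1, Ftl1, Fth1 and Prdx1), against 12.6% of all genes. The median length of the 10 genes was 14.7 kb, against 17.4 kb for all genes. Because the genes were chosen with earlier results known, these counts are a description and were not tested.

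**Figure D1:**
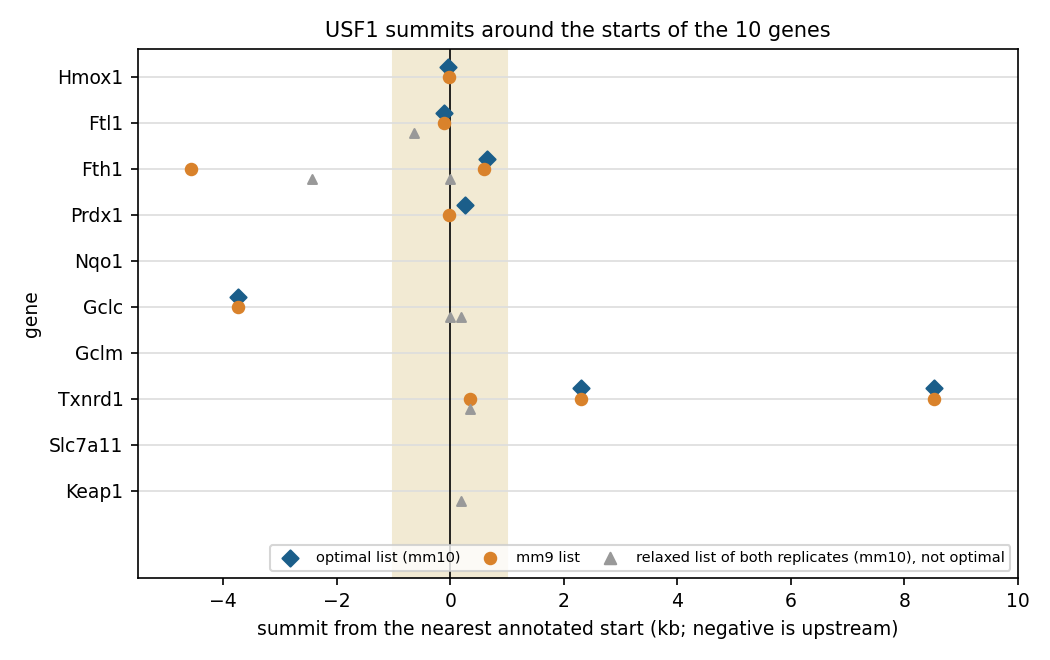
Each symbol is a USF1 summit by its distance in kb from the nearest annotated start (x axis) for each of the 10 genes (rows). Diamonds are optimal mm10 summits, circles mm9 summits, and triangles relaxed mm10 regions with a signal of at least 15 that no optimal region overlapped; the shaded band marks 1 kb on each side. The sites of Hmox1 and Ftl1 lie at the start, that of Gclc lies 3733 bp upstream, and Nqo1, Gclm and Slc7a11 have no symbol.

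The sequences at 8 of the 9 mm9 summits, those of Gclc, Fth1, Prdx1, Txnrd1 and Ftl1, are shown because sites are classed by whether they hold an E-box. The Hmox1 site is given by its values alone. They were read from the NCBIM37 genome (mm9), plus strand, 50 bp on each side of the summit and without any exon base. Capitals mark CACGTG or, where it is absent, the related E-box CACATG, which reads CATGTG on the other strand; the Ftl1 sequence holds neither and has no capitals. Names give the distance of the summit from the nearest start.
Gclc, 3733 bp upstream, chr9:77598559-77598659: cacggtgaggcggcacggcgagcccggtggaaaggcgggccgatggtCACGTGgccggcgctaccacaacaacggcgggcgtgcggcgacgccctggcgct
Fth1, 590 bp downstream, chr19:10057733-10057833: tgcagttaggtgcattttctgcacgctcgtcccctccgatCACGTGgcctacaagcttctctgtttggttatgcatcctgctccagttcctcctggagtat
Fth1, 4565 bp upstream, chr19:10052578-10052678: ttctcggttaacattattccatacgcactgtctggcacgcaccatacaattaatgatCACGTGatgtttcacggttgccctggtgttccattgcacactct
Prdx1, 20 bp upstream, chr4:116358396-116358465: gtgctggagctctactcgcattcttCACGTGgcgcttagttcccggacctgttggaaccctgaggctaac
Txnrd1, 347 bp downstream, chr10:82323383-82323483: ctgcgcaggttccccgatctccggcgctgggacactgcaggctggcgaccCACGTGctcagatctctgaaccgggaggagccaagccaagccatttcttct
Txnrd1, 8526 bp downstream, chr10:82331562-82331662: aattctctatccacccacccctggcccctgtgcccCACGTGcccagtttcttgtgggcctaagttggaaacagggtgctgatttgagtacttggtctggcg
Txnrd1, 2311 bp downstream, chr10:82298957-82299057: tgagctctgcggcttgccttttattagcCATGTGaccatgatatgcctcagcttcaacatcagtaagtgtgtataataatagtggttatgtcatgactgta
Ftl1, 114 bp upstream, chr7:52715318-52715418: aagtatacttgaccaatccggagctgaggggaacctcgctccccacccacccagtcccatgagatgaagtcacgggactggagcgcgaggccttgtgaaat

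Hmox1 encodes heme oxygenase-1, which opens the heme ring and releases biliverdin, carbon monoxide and iron. Its site was the strongest of all 7 optimal sites of these genes. The summit lay 39 bp upstream of the start, in chr8:75093441-75093711 (mm10). Signal was 488 in the optimal list, 233 in replicate 1 and 261 in replicate 2. The region ranked 311 of 8108, within the top 3.84%. It stood in the top 1.20% of the 25978 regions of replicate 1 and the top 0.660% of the 44551 of replicate 2. In mm9 the summit lay 13 bp upstream of the nearest start with a signal of 2214 (rank 127 of 10624), and a single CACGTG was centred 0.5 bp from it. The SP/KLF box GGGCGG also stood in that window, the only one of the 9 mm9 sites to hold it, against 13.2% of all mm9 peaks.

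The ferritin genes encode the subunits of the shell that stores iron, with the heavy chain, from Fth1, carrying the ferroxidase activity and the light chain, from Ftl1, aiding mineral formation. Both were bound within 1 kb of a start. At Fth1 the optimal summit had a signal of 203 (rank 1529), with 102 in each replicate. It lay 641 bp after the second of 2 RefSeq starts and 2687 bp after the outer one (chr19:9983229-9983360, mm10). In mm9, where a single start is annotated, the matching site was intronic, 590 bp downstream, with a signal of 284 (rank 1526) and CACGTG centred 7.5 bp from the summit.

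At Ftl1 the summit lay 112 bp upstream of the start (chr7:45459848-45460147, mm10). Signal was 118 in the optimal list, 68.8 in replicate 1 and 47.4 in replicate 2, and the region ranked 2633. The 2 ferritin sites therefore differed in their motif content: the Ftl1 window held neither E-box, while the intronic Fth1 window held CACGTG. Ftl1 had 1 neighbour within 10 kb, the apoptosis gene Bax, whose start lay 6900 bp from this summit. The nearest optimal summit beyond the 5 kb limit was at Bax itself, 27 bp from its start and 6985 bp from that of Ftl1, with a signal of 577 (rank 46).

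A further, weak site of Fth1 was listed as a peak in mm9 but was not in the optimal mm10 list. It lay 4565 bp upstream of the mm9 start with a signal of 32.4 (rank 9560 of 10624) and carried CACGTG. In mm10 no optimal summit stood within 5 kb upstream of Fth1. The relaxed mm10 list of both replicates had a region 2433 bp upstream of the outer RefSeq start with a signal of 28.7. This region had 14.0 in replicate 1 and 15.4 in replicate 2. The mm9 distance is counted from another start. The intronic site lay 590 bp after the mm9 start and 2687 bp after the outer RefSeq start. Counted from the intronic site, this region and the upstream mm9 site lay at about the same distance, so they appear to be the same place.

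Peroxiredoxin and thioredoxin reductase act in one chain, in which PRDX1 reduces hydrogen peroxide and is restored by thioredoxin, which TXNRD1 in turn reduces with NADPH. Both genes had weak USF1 sites, below the median signal of the optimal list. At Prdx1 the summit lay 253 bp after the RefSeq start (chr4:116685702-116686001, mm10). Signal was 47.6 in the optimal list (rank 5869), 19.6 in replicate 1 and 27.0 in replicate 2. In mm9 it was 53.8 (rank 6037), 20 bp upstream of the nearest of 5 annotated starts, and CACGTG was centred 22.5 bp from the summit, the farthest of the 7 member sites that have it.

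Txnrd1 had 2 optimal sites, both intronic by the mm9 annotation and both absent from the conservative list. The first lay 2311 bp after the start (chr10:82836112-82836411, mm10), with a signal of 31.8 in the optimal list (rank 7693), 14.2 in replicate 1 and 16.2 in replicate 2. The second lay 8526 bp after the nearest start and 34916 bp after the outer one (chr10:82868717-82869016), with 52.0 in the optimal list (rank 5481), 38.1 in replicate 1 and 13.3 in replicate 2. These were the 2 lowest replicate 2 values of the 7 sites. The mm9 list held 1 more Txnrd1 site, 347 bp after a start, with a signal of 36.7 (rank 8527) and CACGTG centred 2.5 bp from the summit. In mm10 the same distance held only a relaxed region, 348 bp after a start, with 32.5 from both replicates together, 12.8 in replicate 1 and 19.6 in replicate 2.

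Glutathione synthesis starts with glutamate-cysteine ligase, whose catalytic subunit is GCLC and whose modifier subunit is GCLM, and it draws on cystine that the SLC7A11 (xCT) transporter imports. Of these 3 genes Gclc alone had a site. It was the second strongest of the 7 sites and lay 3733 bp upstream of the start in both builds (chr9:77750697-77750905, mm10). Signal was 336 in the optimal list (rank 812), 139 in replicate 1 and 198 in replicate 2. In mm9 it was 595 (rank 815), with CACGTG centred 0.5 bp from the summit, 17 CpG dinucleotides and 75.2% G or C within 50 bp of the summit. Over all mm9 peaks the medians were 2.00 CpG and 52.5% G or C. No other protein-coding start lay within 10 kb of this site. At the Gclc start itself the relaxed list of both replicates held a region 5 bp upstream with a signal of 27.3 and another 199 bp downstream with 16.8. Replicate 2 had a summit 10 bp downstream with 17.2, and replicate 1 had one 196 bp downstream with 8.08, so replicate 1 had no summit at the start itself.

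**Figure D2:**
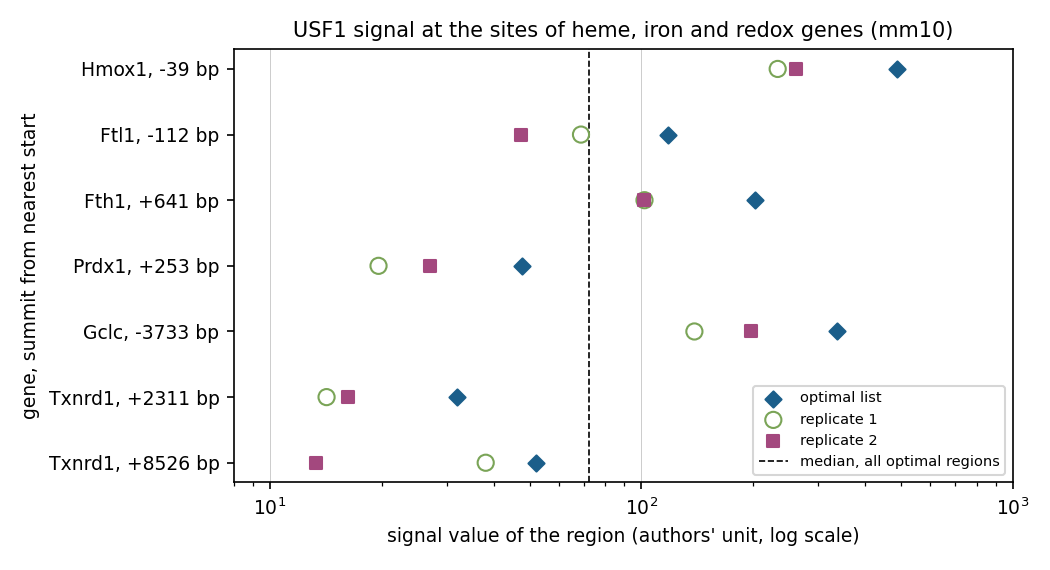
Signal of the 7 optimal sites (x axis, log scale, the authors' unit) by gene and distance of the summit from the nearest start (rows). Diamonds are the optimal list, open circles replicate 1, squares replicate 2, and the dashed line is the median of 72.2 over all optimal regions. Hmox1, Gclc, Fth1 and Ftl1 lie above the median in the optimal list, while Prdx1 and both Txnrd1 sites lie below it.

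The 4 genes without an optimal site had only weak regions or none in the relaxed lists. Their strongest signals in the list of both replicates together lay below the 5th percentile of the optimal list, 31.7. They lay above its lowest signal, 5.62, so they were not outside the range of optimal regions. NQO1 reduces quinones by a pair of electrons at once. Near Nqo1 (chr8:107388225-107403205, mm10, minus strand) no region was listed in replicate 1 or replicate 2, and the strongest in the list of both together had a signal of 8.59 (rank 78181 of 300000). Near Slc7a11 (chr3:50364936-50499087, minus strand) likewise neither replicate had a region, and the strongest in the joint list had 6.88 (rank 161183). Gclm (chr3:122245487-122267215, plus strand) had a region 479 bp from a start in replicate 1 with a signal of 10.5 and none in replicate 2, and its strongest in the joint list, 509 bp from a start, had 13.5 (rank 25379). Keap1 (chr9:21229730-21239332, minus strand) had none in replicate 1, and its strongest in replicate 2 had 9.10, with 15.3 at 194 bp after the start in the joint list.

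The distance to the next optimal summit beyond the rule also varied. It was 17972 bp for Keap1, 33.1 kb for Nqo1, where the site lay 18 bp from the start of Wwp2 with a signal of 482, 123 kb for Gclm and 658 kb for Slc7a11. Among the bound genes, the site nearest to the 5 kb limit on its inner side was that of Gclc at 3733 bp, and on its outer side that of Bax next to Ftl1 at 6985 bp. Hmox1 had a second, weaker site outside the limit, 12208 bp upstream, with a signal of 63.0.

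Each of the 7 optimal sites overlapped a region of each replicate, as did 99.3% of all optimal regions. The optimal list derives from the replicate lists, so this overlap is partly built in. The conservative list held 5 of the 7, all but the 2 Txnrd1 sites, while it held 83.7% of all optimal regions. The median signal of the 7 sites was 118, against 72.2 over all optimal regions. Over all optimal summits within 1 kb of a start it was also 118, but the Gclc site and both Txnrd1 sites lay farther out than that.

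Replicates placed 6 of the 7 sites within a factor of 1.45 of each other. The log2 ratio of replicate 2 over replicate 1 was 0.16 at Hmox1, 0.51 at Gclc, 0.47 at Prdx1, -0.01 at Fth1 and -0.54 at Ftl1. It was 0.19 at the Txnrd1 site 2311 bp after the start and -1.51 at the one 8526 bp after it. The median of the 7 was 0.16. Over all 8054 optimal regions found in both replicates the median was 0.18 with an SD of 0.50. The intronic Txnrd1 site at 8526 bp therefore stood apart from the others: its signal was 2.85-fold lower in replicate 2 than in replicate 1, and 14 of the 8054 regions had a lower ratio. With 2 replicates the difference was not tested.

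**Figure D3:**
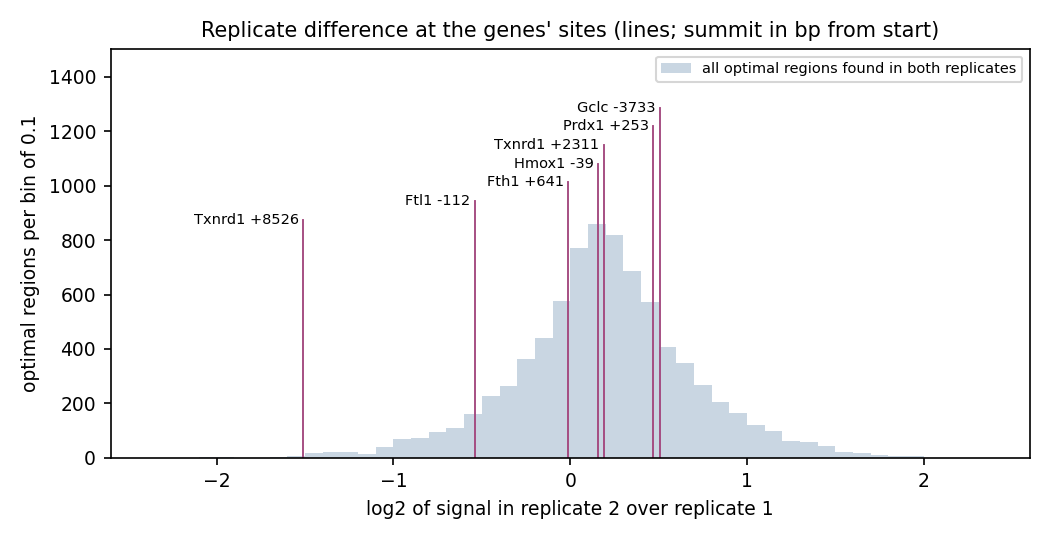
Bars count all optimal regions found in both replicates by the log2 ratio of signal in replicate 2 over replicate 1 (x axis, bins of 0.1). Lines mark the 7 sites of the heme, iron and redox genes, named with the distance of the summit from the nearest start in bp. The line of the Txnrd1 site at 8526 bp stands at -1.51, in the left tail, and the other 6 lie between -0.54 and 0.51.

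In the mm9 list 6 of the 10 genes had a site, against 26.2% of all mm9 protein-coding genes, and within 1 kb of a start 5 had one, against 14.9%. The bound genes were the same 6 as in mm10, and Txnrd1 was the addition within 1 kb. They had 9 mm9 sites. Of these, 7 held CACGTG within 50 bp of the summit, 1 held only CACATG and 1 held neither. Of all 10624 mm9 peaks 53.3% held CACGTG, 30.1% only CACATG and 16.6% neither. The site with only CACATG was that of Txnrd1 at 2311 bp, with a signal of 32.9, and the site with neither was that of Ftl1, with 139.9. The median signal of all mm9 peaks was 75.5 with CACGTG, 57.2 with only CACATG and 47.1 with neither, so the Ftl1 site was stronger than the median of its class.

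The bases beside the core fell into 3 forms. CCACGTGA, read with 1 flanking base on each side and on the strand that ends in A, stood at Hmox1, Gclc, Fth1 (590 bp) and Prdx1, and in 27.8% of the copies nearest all summits. CCACGTGC stood at the 2 Txnrd1 sites with CACGTG, and in 7.95% of all copies. TCACGTGA stood at the upstream Fth1 site, and in 24.4%. No mm9 site of these genes held the core of the antioxidant response element TGACNNNGC, which 1066 of all 10624 mm9 peaks held, nor the AP-1 site TGAGTCA (5.84%) or the cAMP response element TGACGTCA (0.875%). All motifs were searched on both strands.

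Most CACGTG copies near these genes had no USF1 summit. Within 5 kb of a start or inside the 10 genes there were 48 copies in mm9, and 7 of them (14.6%) had a summit within 50 bp. Over all protein-coding genes the share was 3.14% of 131659 copies. The 7 copies are those of the 7 mm9 sites with CACGTG counted above, so the share is not a separate result. The single copy around Hmox1 was bound. Around Gclc 1 of 9 copies was bound, around Fth1 2 of 5, around Prdx1 1 of 3 and around Txnrd1 2 of 8. None of the 8 copies around Slc7a11, the 7 around Nqo1, the 3 around Keap1, the 2 around Gclm or the 2 around Ftl1 had a summit. Genes without a site thus did not lack the motif in the searched span.

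**Figure D4:**
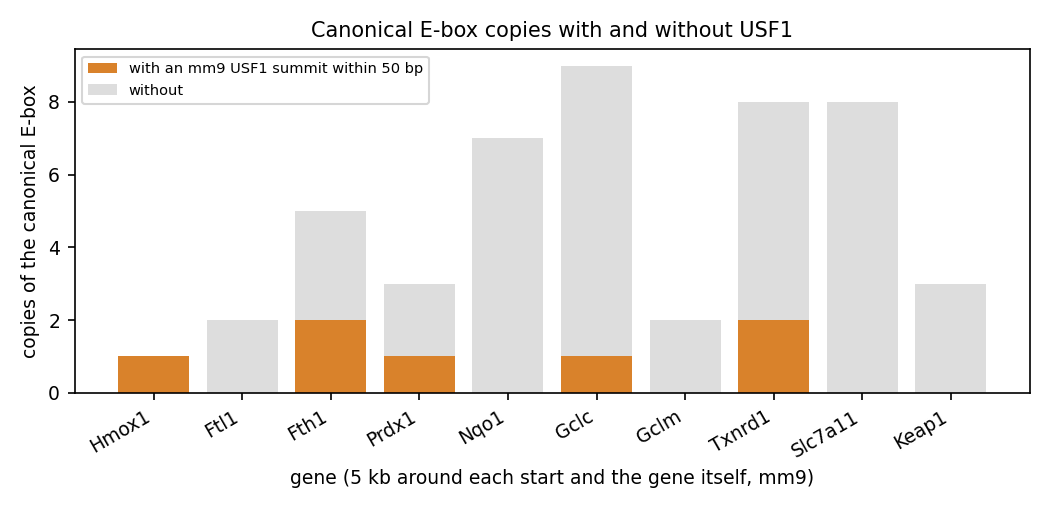
Bars count copies of the canonical E-box (y axis) within 5 kb of a start or inside each gene in mm9, split into those with a USF1 summit within 50 bp (orange) and those without (grey). Hmox1 has 1 copy, which is bound, and Slc7a11 has 8, none of which is bound.

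The promoters themselves were searched next. RefSeq promoter windows (GRCm38.p6, 250 bp before to 50 bp after a start) were matched for 8 of the 10 genes, all but Hmox1 and Gclc. None of their 11 windows held CACGTG, which 7.91% of all 21045 windows of protein-coding genes held. With 11 windows this is close to the share of all. Hmox1, which is not among them, had CACGTG centred 0.5 bp from its mm9 summit, 13 bp upstream of a start. CACATG stood in the windows of Slc7a11 and of the outer Fth1 start, against 11.6% of all windows. TGACNNNGC stood in those of Prdx1, Gclm and 1 Txnrd1 start, against 13.0%, TGAGTCA in that of Prdx1, against 4.69%, and GGGCGG in 7 of the genes' windows, against 46.7%; TGACGTCA stood in none, against 2.26%. The absence of letters from such a window says nothing of binding outside it, since the Prdx1 and Fth1 summits lay 253 and 641 bp after a start.

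Other genes of the same pathways were read from 8 lists of 70 genes, of which 19 (27.1%) had an optimal summit within 1 kb of a start, against 12.6% of all genes. By the wider rule, within 5 kb or inside the gene, 31 (44.3%) had one, against 22.7%. The median signal of the 19, taking only the strongest summit of each gene, was 168. The median of 118 for all optimal summits within 1 kb also takes in weaker summits of the same gene, so the measures differ. In the mm9 list 13 of the 19 had CACGTG at the strongest summit within 1 kb, 1 had only CACATG and 5 had neither. Over all mm9 peaks, at any distance from a start, these shares were 53.3%, 30.1% and 16.6%.

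In what follows a gene is called bound when a summit lay within 1 kb of a start (12.6% of all genes), and the count by the wider rule (22.7% of all genes) stands beside it. Heme synthesis genes had 3 of 9 bound, and 4 of 9 by the wider rule. Urod, uroporphyrinogen decarboxylase, was the strongest of all 19 at 537, with 258 in replicate 1 and 285 in replicate 2, and that region is shared with the start of Hectd3. Uros, which makes uroporphyrinogen, had 193, shared with Bccip, and Alad, porphobilinogen synthase, had 89.8. Alas1 and Alas2, which encode forms of the first and rate-limiting enzyme, had no summit within 1 kb, and Alas1 had one by the wider rule. Of genes for heme breakdown, transport and heme sensing 1 of 9 (11.1%) was bound, near the share of all genes, and 4 of 9 (44.4%) by the wider rule. The bound gene was Bach1, the heme-sensing repressor, at 168, with 78.2 in replicate 1, 90.2 in replicate 2 and neither E-box. Hmox2, the constitutive heme oxygenase, had no site by either rule.

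Of 13 genes of iron uptake, storage and control 3 were bound, and 4 by the wider rule. Fbxl5, an iron-sensing adaptor that marks IRP2 for breakdown, had 231, and Pcbp1, an iron chaperone that delivers iron to ferritin, had 205. Tfrc, the transferrin receptor, had 45.5, with 26.8 in replicate 1 and 11.5 in replicate 2. Among NRF2, its partners and adaptors 4 of 8 were bound, and 7 of 8 (87.5%) by the wider rule. Mafg, a small MAF partner, had 518, and Cul3, the ligase scaffold that KEAP1 serves, had 493, while the other small MAF genes Maff and Mafk had 58.1 and 46.4. Nfe2l2, which encodes NRF2, had a site by the wider rule but none within 1 kb.

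The glutathione list had 3 of 11 bound, and 5 by the wider rule, with Gpx1, glutathione peroxidase 1, at 441, Chac1, which breaks glutathione down, at 106 and Gsto1, a glutathione transferase, at 42.6. The thioredoxin and peroxiredoxin list also had 3 of 11, and 5 by the wider rule, with the peroxiredoxins Prdx4 at 185 and Prdx6 at 42.2 and mitochondrial thioredoxin, from Txn2, at 63.4. Of the NADPH supply genes 2 of 6 were bound, by either rule, Pgd of the pentose phosphate pathway at 189.6 and Idh1, the cytosolic isocitrate dehydrogenase, at 133, the second shared with the start of Pikfyve. Sod1, Sod2 and Cat, which remove superoxide and hydrogen peroxide, had 0 of 3, and none of them had a site by the wider rule.

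**Figure D5:**
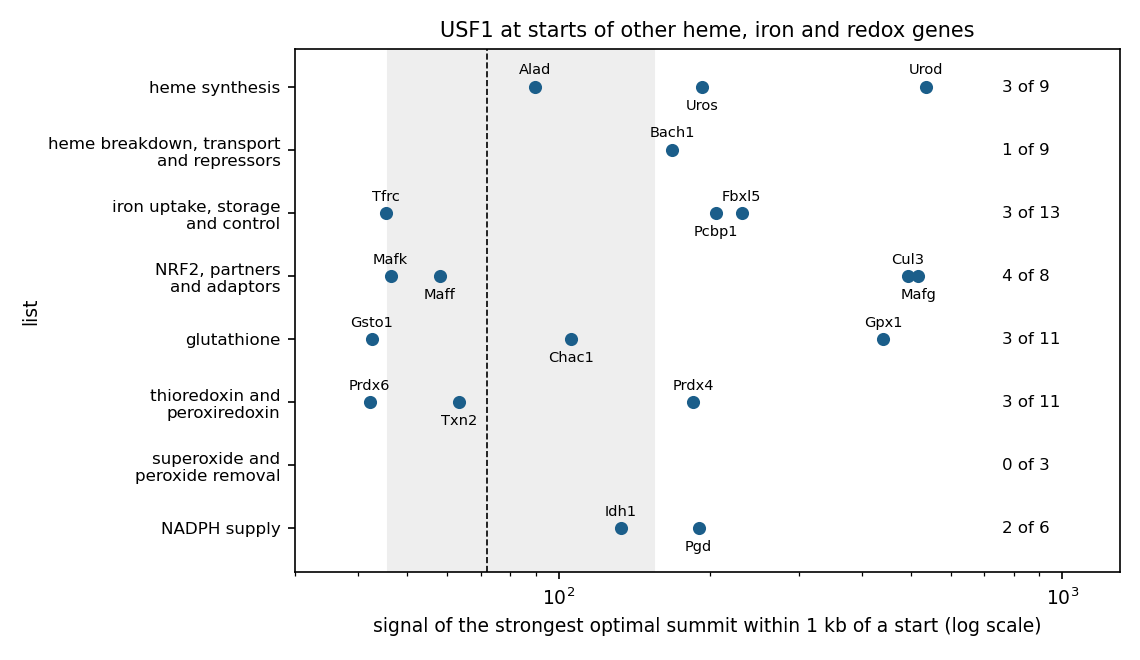
Signal of the strongest optimal summit within 1 kb of a start (x axis, log scale) for 19 of 70 other heme, iron and redox genes, by list (rows), with the bound number of each list at the right. The grey band spans the 25th to 75th percentile of all optimal regions and the dashed line is their median of 72.2. Urod, Mafg, Cul3 and Gpx1 lie highest, between 441 and 537.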

How the data were processed

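USF1 ChIP-seq of CH12.LX cells was used as deposited lists of regions; the deposited signal value (column 7, the authors' own unit) was not rescaled. Per the deposited readme files, each replicate's relaxed mm10 list came from its alignments, the optimal and conservative lists were thresholded by IDR (irreproducible discovery rate) from the relaxed lists, and the mm9 list came from both replicates' mm9 alignments. The aligner, peak caller and thresholds: not given in the sources used here. Of 8108 optimal regions, 8106 had the same limits and signal (to within 0.001) in the relaxed list of both replicates. The depth is unknown.

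Summits, given 1-based, add the offset of column 10 to where a region begins. mm10 starts came from RefSeq GRCm38.p6 (the promoter table and the gene's outer end); strand came from that table or, as for Hmox1 and Gclc, from Gencode vM1 by symbol, and 354 genes without a strand were left out. mm9 starts were those of every Gencode vM1 transcript, and sequence was NCBIM37; the mm9 background holds 22367 protein-coding genes. Replicate signal was that of the strongest region overlapping by at least 1 bp. E-boxes were searched within 50 bp of the mm9 summit. Python 3.11.15, numpy 2.4.6 and pysam 0.24.0 were used, and the scripts were tested on simulated data. No statistical test was made: there is 1 group, and the genes and lists were chosen with earlier results of these data known. Named genes were the 10, plus, of the 70 others, those with an optimal summit within 1 kb (at most the 4 strongest of a list); genes of the lists named without a summit within 1 kb (Alas1, Alas2, Hmox2, Nfe2l2, Sod1, Sod2, Cat and those of the closing section) fall outside that rule and were chosen after their values were seen. The searches of CACGTG copies around genes and of relaxed regions were added after the sites had been seen.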

Additional observations from a re-analysis of the deposited data

How the results depend on the processing

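Of the results above, 6 were counts of genes or sites and 1 was a median; 31 of 32 alternatives for them stayed within 1.5 times the count, or within 1 SD of the median. The exception was the number of mm9 sites with CACGTG, which was 3 among peaks at or above the median signal, against 7 in all, by construction since fewer sites remain. It was 7 with windows of 25 bp or 100 bp. The count of bound genes within 5 kb or inside was 4 to 6 of 10 over all alternatives: Gclc dropped out at limits of 1 kb and 2 kb, Txnrd1 in the conservative list, and Prdx1 and Txnrd1 in the stronger 50% of regions. It was 6 from the strongest 8108 regions of either replicate alone. In replicate 2, Txnrd1 was counted through a region 324 bp after a start (rank 7653) that has no counterpart in the optimal list. The count within 1 kb was 3 to 5 over the alternatives that kept this limit, and without replicate 1 Txnrd1 made it 5. With the limit moved to 2 kb it was 4, and with 10 kb it was 6. Of the 7 optimal sites, 5 lay among the strongest 8108 regions of both replicates, the 2 Txnrd1 sites being the others. The 19 other pathway genes were 13 in the stronger 50%, 22 within 2 kb and 28 within 10 kb. They were 20 without replicate 1 and 22 without replicate 2. In the conservative list they were 21, more than in the optimal list, so its summits are not all among the optimal ones. Depth is unknown, so an unlisted region cannot be told apart from one that missed the IDR threshold. That threshold is not a cut-off in signal. The relaxed Txnrd1 region 348 bp after a start had 32.5, above the 31.8 of the optimal Txnrd1 site at 2311 bp.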

Other observations

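Some genes of the 8 lists had a USF1 summit only farther than 1 kb from a start. By the rule of 5 kb or inside the gene, 31 of the 70 genes (44.3%) had a summit, against 22.7% of all genes. The 31 include the 19 with a summit within 1 kb. Sqstm1, whose product p62 sequesters KEAP1, had an optimal summit 2405 bp upstream with a signal of 181. Inside Nfe2l2, which encodes NRF2, a summit with a signal of 109 lay 21568 bp from the nearest start, and inside Alas1, the rate-limiting gene of heme synthesis outside red cells, one with 151 lay 13537 bp from it. Bach2, a BACH1 relative needed in B cells, had one with 113 inside the gene, 84511 bp from a start. Nfe2l1, an NRF2 relative, had a summit with 78.1 at 1085 bp, just beyond the 1 kb limit. The cytosolic thioredoxin gene Txn1 had one with 68.4 at 1838 bp upstream, and Gpx4, a peroxidase that acts on lipid peroxides, one with 99.5 at 3123 bp upstream. Whether the start of another gene lay nearer to any of these summits was not examined. The genes named here were read from the same 8 lists and picked after their values were seen. Others with a summit only by the wider rule, such as Gsr (80.1) and Blvrb (79.2), were not picked.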
